A study of Rattus norvegicus with 30 samples.

Results

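The genes described here encode the proteins of the cytosolic ribosome. They were the rows of the gene count table whose symbol begins with Rpl or Rps and a number, together with Rplp0, leaving out the Rps6k kinases, and 64 of 13124 listed genes met this rule. Of the 64, 36 encode proteins named for the large subunit and 27 proteins named for the small subunit, and 1, Rps19bp1, encodes a protein that binds a ribosomal protein and is not one itself. Among them are the paralogs Rpl3l, Rpl7l1, Rpl10l, Rpl22l1 and Rpl36al of the large subunit and Rps27l and Rps4y2 of the small subunit.

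The RNA came from plantaris tendons of male Sprague Dawley rats that were 3 months old. In 6 groups the tendon had been cut through and sutured at once, and the rats then received GSK2894631A, an inhibitor of hematopoietic prostaglandin D synthase, by repeated daily gavage at 0 mg/kg (vehicle), 2 mg/kg or 6 mg/kg until collection at 7 days (7D) or 21 days (21D). Control rats had neither the surgery nor the compound, so a difference between a repaired group and control combines the operation, the gavage and, where given, the inhibitor. The table holds 30 tendons, each from a separate rat: 3 control, 5, 4 and 3 at 7D (0, 2 and 6 mg/kg) and 5 in each 21D group, with 12405741 to 49909374 counts per tendon.

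Ribosomes are built from ribosomal RNA and one copy of most ribosomal proteins, and the genes of both subunits are transcribed at high rates in most cells. Their mRNAs typically begin with a cytosine followed by a run of pyrimidines, the 5′ terminal oligopyrimidine (TOP) tract, through which the kinase mTOR controls their translation. A few paralogs are tissue restricted, and Rpl3l, the paralog of Rpl3, is known from skeletal and cardiac muscle.

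A start-site window was looked up for the members in the RefSeq promoter table of build GRCr8, which is not the build of the counts. The table held 48 members under the same symbol, and 45 ribosomal protein members lay on the same chromosome as in the count table. In the 30 bases that begin 15 bases before the annotated start, CTTTC or CTTCC, short pyrimidine stretches of the kind found in a TOP tract, stood on the sense strand in 24 of 45 members (53.3%), against 9.33% of all 33469 promoters. CTTTC stood in 18 of the 45 and in 3.59% of all promoters, and CTTCC in 14 (31.1%) and in 6.05%. On the opposite strand the letters stood in 0 members for CTTTC (3.82% of all promoters) and in 6.7% for CTTCC (6.73%). A match is a description of letters near an annotated start and was not tested as a TOP tract. The windows below are those of the 4 members of highest median count that hold a match, of Rpl3 and Rps27, and of the paralogs with an entry, with the matched letters in capitals.
Rpl4 (chr8:73566462-73566491, plus strand): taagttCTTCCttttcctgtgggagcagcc
Rps3 (chr1:163195762-163195791, minus strand): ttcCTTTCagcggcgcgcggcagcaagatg
Rps15 (chr7:10068101-10068130, minus strand): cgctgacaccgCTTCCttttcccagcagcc
Rpl23 (chr10:83272170-83272199, minus strand): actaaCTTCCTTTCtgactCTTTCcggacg
Rps27 (chr2:177964592-177964621, minus strand): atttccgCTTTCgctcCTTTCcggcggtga
Rpl3 (chr7:113507976-113508005, minus strand): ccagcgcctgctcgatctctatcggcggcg
Rpl3l (chr10:14258431-14258460, plus strand): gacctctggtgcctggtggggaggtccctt
Rpl22l1 (chr2:113683181-113683210, plus strand): gctccgtggatatccggttccgagttgcgc
Rpl7l1 (chr9:21695703-21695732, plus strand): agctgcagatgcattgtgggaagcctttaa
Rps27l (chr8:76443643-76443672, plus strand): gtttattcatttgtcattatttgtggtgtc
Rps4y2 (chr4:183000898-183000927, plus strand): gcgcgcagctctcctcactcgcttgtgctc
Neither search found these letters in the windows of Rpl3, Rpl3l, Rpl22l1, Rpl7l1, Rps27l or Rps4y2, which says only that they are not in these 30 bases.

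The filter of at least 3 CPM (reads of a gene scaled to a common library total) on average in at least 1 group kept 61 of the 64 members and 12558 genes in all. Rpl32, Rps14 and Rps20 did not pass it, so 35 large and 25 small subunit members and Rps19bp1 were tested. Median counts over tendons ran from 36 (Rps10) to 96828 (Rplp0, the stalk protein P0), 9 members averaged under 10 CPM, and the 5 highest members held 36.6% of all member counts. The reads were 50 bases long and single ended, and many ribosomal protein genes have near-identical processed copies, so the counts of the low members and of the rows with a short span, such as Rps27a, Rps4x and Rpl30, are uncertain. Counts were not divided by length, so levels are compared between groups and not between genes.

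Control tendons carried much more muscle RNA than repaired ones, although the study cut the tendon short of the muscle junction to avoid it. The 29 listed markers of skeletal muscle held 22.9% to 32.5% of counts in the 3 controls, 0.302% to 1.59% at 7D 0 mg/kg, 0.0504% to 0.0834% in the treated 7D tendons and 0.126% to 11.4% at 21D. In the vehicle tendons at 7D all 12 leukocyte markers and all 9 proliferation markers were higher than in control (35.8% of all genes were). The share of muscle RNA cannot be told apart from the repair in the comparison with control. In bulk tissue, a change in the number of cells of a type and a change in RNA per cell cannot be told apart.

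The members' share of all listed counts was lowest in control tendons. It was 1.34% ± 0.208 (SD, n = 3) in control, 2.69% ± 0.315 (n = 5), 2.95% ± 0.294 (n = 4) and 2.81% ± 0.342 (n = 3) at 7D 0, 2 and 6 mg/kg, and 2.41% ± 0.292, 2.47% ± 0.242 and 2.69% ± 0.469 (n = 5 each) at 21D. The controls held 1.11% to 1.52%, and the lowest repaired tendon held 1.99%, so control and repaired tendons did not overlap. With the muscle marker counts left out of the total, the control mean was 1.83% and the 6 repaired means lay between 2.53% and 2.95%, but the tendons then overlapped, since the highest control held 2.08% and the lowest tendon of 21D 0 mg/kg 1.99%. Small subunit counts per large subunit count were 0.354 ± 0.00469 in control, 0.438 to 0.445 on average at 7D and 0.418 to 0.420 at 21D, with no repaired tendon as low as a control. The large subunit counts include the muscle paralog Rpl3l, with 11826, 14265 and 15739 counts in the 3 controls. The lowest repaired tendon, 21D 2 mg/kg replicate 2 at 0.377, had 1587. Rpl3l lowers the control ratios most. Without Rpl3l in the large subunit counts, that repaired tendon would lie below the highest control. The lack of overlap in this ratio therefore depends on Rpl3l, and the gap between the group means depends partly on it. These shares are descriptions, without a test.

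**Figure D1:**
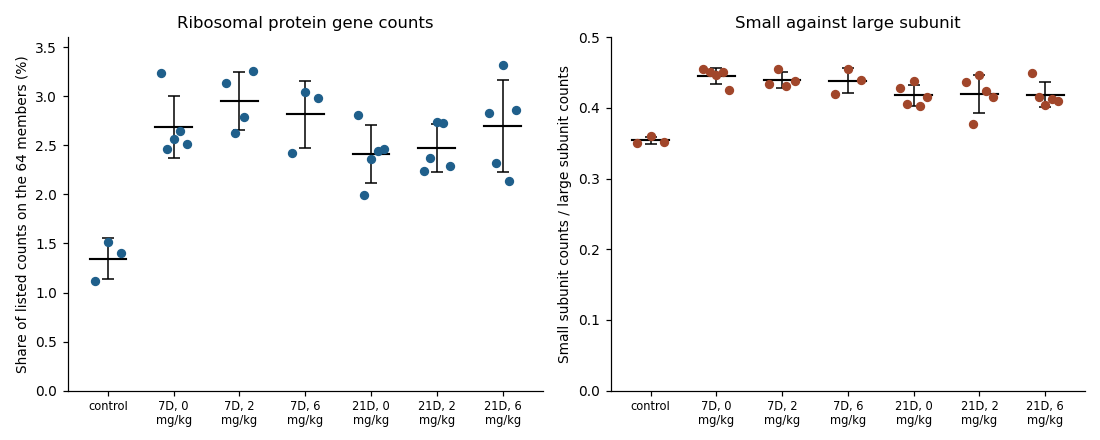
Each point is 1 tendon, the long line is the group mean and the bar is ± 1 SD. The left panel plots the percent of listed counts on the 64 members and the right panel the small subunit counts per large subunit count. The 3 controls lie below every repaired tendon in both, with Rpl3l counted in the large subunit. In the right panel this lack of overlap depends on counting Rpl3l.

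Against control, ribosomal protein genes were mostly higher in repaired tendon or not past the threshold, and rarely lower. At 7D 0 mg/kg, 29 of 61 members were higher (47.5%, beside 35.8% of all genes tested) and 2 were lower (3.28%, beside 35.6%), by edgeR's quasi-likelihood test at an adjusted p under 0.05. The median log2 fold change was 0.38 for the members and 0.05 for all genes. The 25 small subunit members had a median of 0.60, with 14 higher and 0 lower at this threshold. The 35 large subunit members had a median of 0.29, with 15 higher and 2 lower. The difference between the subunits was not tested.

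The other repaired groups gave counts of the same kind. At 7D 2 mg/kg, 43 members were higher (35.8% of all genes) and 1 was lower (34%). The 7D 6 mg/kg group had 31 higher (34.1%) and 2 lower (33.8%). For 21D 0 mg/kg against control, 21 members were higher (32.2%) and 1 was lower (33.7%). The 21D 2 mg/kg tendons had 26 higher (33.8%) and 1 lower (35.3%), and those of 21D 6 mg/kg had 40 higher (30.8%) and 1 lower (33.3%). With a change of at least 1.5-fold also asked for, 17 members were higher (29% of all genes) and 1 lower (27.6%) at 7D 0 mg/kg, and 8 were higher (25.4%) at 21D 0 mg/kg. At 21D 0 mg/kg the 34.4% of members that were higher was near the share of all genes, so that count sets nothing apart about the members, while 1.64% were lower. The median member log2 fold change was 0.57 and 0.44 at 7D 2 and 6 mg/kg and 0.29, 0.34 and 0.51 at 21D. Small subunit medians exceeded the large subunit ones in each of the 6 groups, at 0.86 against 0.51 and 0.68 against 0.41 for the 2 treated 7D groups and 0.44 against 0.22, 0.51 against 0.29 and 0.76 against 0.44 at 21D. The 6 comparisons share the same 3 controls.

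These counts moved with the controls used and with the scaling. Without control replicate 2, which had the lowest member share, the members higher numbered 13, 23 and 17 at 7D and 7, 11 and 17 at 21D (0, 2 and 6 mg/kg), beside 32.1%, 32.3%, 31.6%, 29.5%, 30.2% and 28% of all genes. The share of the 61 members was then above that of all genes at 7D 2 mg/kg and close to it or below it in the other 5 groups. The members' medians without that control were 0.18, 0.36 and 0.25 at 7D and 0.11, 0.12 and 0.31 at 21D, and the members lower numbered 2 to 4. With library size alone as the scaling, the median of all genes at 7D 0 mg/kg moved from 0.05 to 0.64, and 55 members were higher (beside 59.5% of all genes) and 1 lower (19.3%). The members' median stood above that of all genes by 0.33 with the TMM (trimmed mean of M values) factors and by 0.37 with library size alone.

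**Figure D2:**
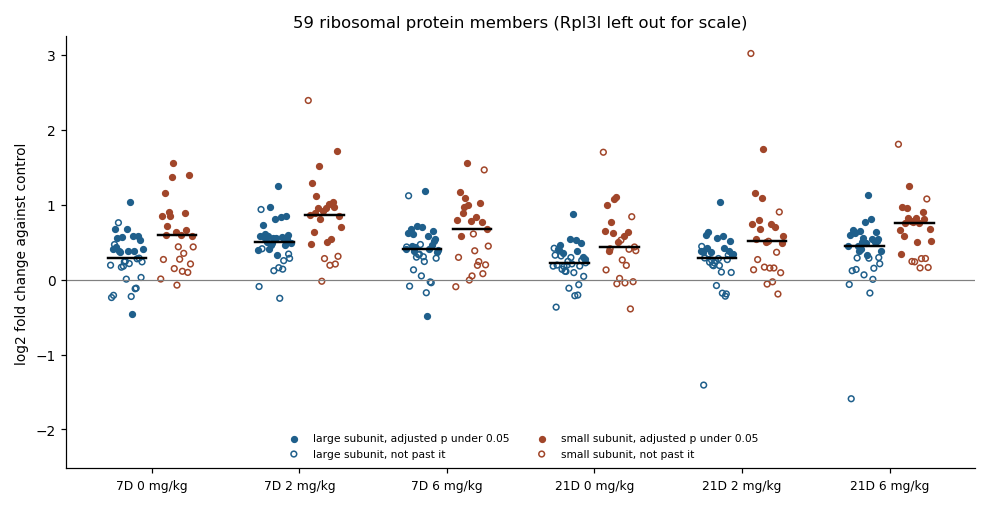
Points are log2 fold changes against control for the large (blue) and small (red) subunit members in each repaired group, filled where the adjusted p was under 0.05, and black lines are the medians of each subunit. Rpl3l, at -3.01 to -11.16, is left out for scale. Most filled points lie above 0 and each small subunit median lies above the large one.

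Across all 6 repaired groups, 19 members were higher in each (24.4% of all genes were), 15 members were called in none (15.2% of all genes) and 1, Rpl3l, was lower in each (27.7% of all genes). Among the 19 were Rpl3, Rpl6, Rpl13a, Rpl14, Rpl15, Rpl27a, Rpl34, Rpl35, Rps2, Rps3, Rps10l1, Rps12, Rps15, Rps16, Rps18l1, Rps23 and Rps27a.

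Rpl3, which lines the peptidyl transferase centre, rose in every repaired group. Its levels were 675, 901 and 472 CPM in control and 1557, 1328, 1330, 1321 and 1446 CPM at 7D 0 mg/kg. All repaired tendons, from 1184 to 1937 CPM, stood above all controls. The log2 fold change was 1.03 at 7D 0 mg/kg (SE 0.17, adjusted p = 1.036e-05) and 0.87 at 21D 0 mg/kg (SE 0.17).

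Rps12, a small subunit protein known from studies of cell competition, stood at 8.49, 12.7 and 11.02 CPM in control and at 28.4, 21.3, 22.1, 24.9 and 23.2 CPM at 7D 0 mg/kg. The groups did not overlap. At 7D 0 mg/kg 31.2% of all genes tested and 34.4% of members were higher than control without overlap, so lack of overlap sets nothing apart about the members. It rose by a log2 fold change of 1.16 at 7D 0 mg/kg (SE 0.16, adjusted p = 5.953e-07) and 0.996 at 21D 0 mg/kg, and by 0.97 to 1.28 in the other groups. Rps18l1, an Rps18-like gene, stood at 39.1, 51.3 and 47.9 CPM in control and at 151, 119, 107, 119 and 99.4 CPM at 7D 0 mg/kg, again without overlap. It rose by 1.37 (SE 0.24, adjusted p = 2.233e-05) and by 1.08 at 21D 0 mg/kg.

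Rps3, which sits at the mRNA entry channel, had 690, 942 and 939 CPM in control and 1961, 1428, 1581, 1535 and 1418 CPM at 7D 0 mg/kg. It rose by 0.89 (SE 0.18, adjusted p = 8.34e-05), and all repaired tendons, from 1096 CPM, lay above the controls. Rpl13a, which also takes part in inhibiting translation of inflammatory mRNAs, rose by 0.67 at 7D 0 mg/kg and 0.40 at 21D 0 mg/kg. The row named Rps27a, for a protein made as a fusion with ubiquitin, rose by 0.60 and 0.58. This row spans 545 bases, and whether its counts come from the fusion gene or a processed copy was not tested.

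Rpl5, Rpl11 and Rpl23 are known to bind Mdm2 when ribosome assembly is disturbed. Rpl11 had 486, 637 and 761 CPM in control and 979, 767, 840, 830 and 754 CPM at 7D 0 mg/kg, which overlapped. Its log2 fold change was 0.41 (adjusted p = 0.02093) at 7D 0 mg/kg and 0.33 at 21D 0 mg/kg, and only the first passed. Rpl5 gave 0.29 (adjusted p = 0.06675) at 7D 0 mg/kg and passed at 7D 2 and 6 mg/kg, at 0.54 and 0.52, and Rpl23 gave 0.18 (adjusted p = 0.332) at 7D 0 mg/kg. Rpl4, which lines the exit tunnel, gave 0.28 and Rpl10, the last protein to join the large subunit, gave 0.19, and neither passed at 0 mg/kg. Rplp0 was at 1860, 2284 and 2754 CPM in control and at 3163, 2928, 2977, 2977 and 3180 CPM at 7D 0 mg/kg, a log2 fold change of 0.41 (SE 0.14, adjusted p = 0.012).

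Rps2, which faces the mRNA entry channel, had the largest rise among the members that passed at 7D 0 mg/kg. It stood at 76.9, 91.7 and 71.6 CPM in control and at 98.9, 260, 264, 296 and 257 CPM at 7D 0 mg/kg, with a log2 fold change of 1.55 (SE 0.34, adjusted p = 0.0002611). The first 7D tendon was near the controls and the other 4 stood at 257 CPM or more. Treated 7D tendons ran from 85.1 to 212 CPM and 21D tendons from 71.0 to 334 CPM, and the lowest tendon of 7D 2 mg/kg and of 21D 0 mg/kg lay within or below the range of the controls.

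Rpl31 was the other member that fell, a call that changed with the scaling and with 1 control. It stood at 9.48, 11.2 and 18.2 CPM in control and at 8.08 to 10.4 CPM at 7D 0 mg/kg, with a log2 fold change of -0.45 (SE 0.17, adjusted p = 0.01851), which was 0.18 with library size alone. Without control replicate 4, the tendon at 18.2 CPM, it was -0.19 (adjusted p = 0.2908). At 7D 6 mg/kg it was -0.48, and in the other 4 repaired groups, at -0.25 to -0.18, it did not pass.

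Rpl3l (ENSRNOG00000014641, chromosome 10), the striated muscle paralog of Rpl3 (ENSRNOG00000016896, chromosome 7), was the member that fell in every repaired group. It stood at 558, 571 and 1285 CPM in control, at 14.9, 38.0, 5.34, 19.5 and 5.83 CPM at 7D 0 mg/kg, at 0.294 to 0.449 CPM at 7D 2 mg/kg and at 0.456 to 0.991 CPM at 7D 6 mg/kg. At 21D it stood at 124, 1.38, 54.3, 49.3 and 201 CPM (0 mg/kg), 25.2 to 69.9 CPM (2 mg/kg) and 7.10 to 212 CPM (6 mg/kg). No repaired tendon overlapped a control (at 7D 0 mg/kg 30.7% of all genes were lower without overlap). The log2 fold changes against control were -5.59 (SE 0.99, adjusted p = 2.045e-05), -11.16 and -10.13 at 7D and -3.23 (adjusted p = 0.003163), -4.09 and -3.01 at 21D. The lowest tendon had 7 Rpl3l counts, above the floor of 3 counts, which covers counting error only.

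The muscle markers moved with Rpl3l. All 29 were lower at 7D 0 mg/kg (35.6% of all genes were), with a median log2 fold change of -5.78, and 26 were lower at 21D 0 mg/kg (33.7%). Rpl3l counts per 1000 muscle marker counts were 2.04 ± 0.300 in control, 2.08 ± 0.331 at 7D 0 mg/kg and 1.82 ± 0.417 at 21D 0 mg/kg. They were 0.724 ± 0.121 (n = 4) at 7D 2 mg/kg, where a tendon had 7 to 11 Rpl3l counts, and 1.17 ± 0.717 (n = 3) at 7D 6 mg/kg, where the tendons stood at 0.738, 0.773 and 1.998 with 8 to 53 Rpl3l counts. With the log2 share of muscle counts as a covariate, a choice made after seeing the data, Rpl3l gave -0.29 at 7D 0 mg/kg (adjusted p = 0.4566) and -0.54 at 21D 0 mg/kg (adjusted p = 0.07241), so it no longer passed, while the members higher than control numbered 19, 8 and 8 at 7D and 16, 20 and 35 at 21D (0, 2 and 6 mg/kg), beside 21.4%, 7.06%, 8.67%, 22.6%, 25.3% and 22.3% of all genes. The members' median log2 fold changes in that fit were 0.41, 0.60 and 0.50 at 7D and 0.31, 0.33 and 0.53 at 21D, about as large as without the covariate. Muscle shares did not overlap between control tendons (at least 22.9%) and repaired tendons (at most 11.4%). The fit with the covariate therefore cannot tell muscle share apart from the repair, for Rpl3l or for the other members. Over the 7 group means, the 5 genes outside the members whose log2 CPM followed Rpl3l most closely were Txlnb, Fitm1, Klhl31, Hjv and Pygm (Pearson r 0.9989 to 0.9995 across groups that share the muscle gradient), and Pygm, the muscle glycogen phosphorylase, is itself on the muscle list.

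The ratio of Rpl3l to Rpl3 counts within a tendon uses no library scaling. Its log2 was 0.17 ± 1.12 in control, -6.77 ± 1.22 at 7D 0 mg/kg and -4.99 ± 2.78 at 21D 0 mg/kg. The differences from control were -6.94 and -5.16, with an exact 2-sided permutation p = 0.0357 each, the smallest that 3 against 5 tendons allows, and adjusted p = 0.179 over 15 tests. The other 4 pairs gave no separation of groups. Rps4y2 over Rps4x differed by 1.27 at 7D 0 mg/kg (exact permutation p = 0.143), Rpl7l1 over Rpl7 by 0.23 (exact permutation p = 0.714), Rpl10l over Rpl10 by -0.45 (exact permutation p = 0.250) and Rps27l over Rps27 by -0.15 (exact permutation p = 0.214). From 7D to 21D at 0 mg/kg, Rpl10l over Rpl10 differed by 0.68 (exact permutation p = 0.0317, adjusted p = 0.179), with overlapping tendons.

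**Figure D3:**
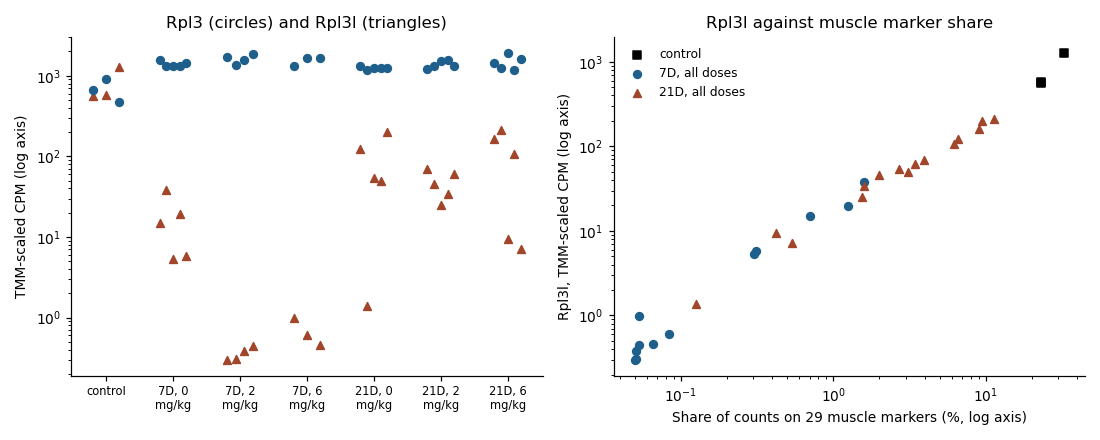
Left, TMM-scaled CPM of Rpl3 (circles) and Rpl3l (triangles) in each tendon on a log axis. Right, Rpl3l CPM against the percent of counts on 29 muscle markers, both on log axes, for control, 7D and 21D tendons. Tendons with more muscle counts have more Rpl3l, from 0.294 to 1285 CPM.

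Rpl22l1, the paralog of Rpl22, stood at 56.7, 72.4 and 117 CPM in control, at 101 to 152 CPM at 7D 0 mg/kg and at 66.2 to 118 CPM at 21D 0 mg/kg. The log2 fold change was 0.57 at 7D 0 mg/kg (SE 0.26, adjusted p = 0.04959), 0.97 and 0.71 at 7D 2 and 6 mg/kg and 0.11 (adjusted p = 0.707) at 21D 0 mg/kg. It was 0.20 (adjusted p = 0.5023) at 21D 2 mg/kg and 0.64 (adjusted p = 0.03192) at 21D 6 mg/kg, and tendons overlapped the controls in all 6 groups. The change from 7D to 21D passed at 2 mg/kg and not at 0 mg/kg (log2 difference -0.46, adjusted p = 0.2008).

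The paralogs other than Rpl3l and Rpl22l1 had small or uncertain differences. Rpl7l1, a nucleolar relative of Rpl7, stood at 27.3 ± 7.34 CPM in control, 32.2 ± 3.11 at 7D 0 mg/kg and 33.2 ± 3.601 at 21D 0 mg/kg. It passed in 3 of the 6 groups, with log2 fold changes of 0.36, 0.28 and 0.32 at 7D 6 mg/kg and at 21D 0 and 2 mg/kg. Its controls stood at 29.8, 33.1 and 19.0 CPM. Without control replicate 4, the lowest of them, the log2 fold change at 7D 0 mg/kg, which had not passed, was -0.022. Rps27l, a target of p53, stood at 146 ± 49.99 CPM in control and 157 ± 27.0 CPM at 7D 0 mg/kg, and Rpl36al at 95.7 ± 33.4 and 87.8 ± 12.6 CPM. Rpl10l, known from the testis, stood at 2.38 ± 0.540 CPM in control and 2.01 ± 0.480 CPM at 7D 0 mg/kg. Rps27l, Rpl36al and Rpl10l passed in none of the 6 groups. Rps4y2 stood at 2.73, 4.21 and 8.33 CPM in control and at 5.70, 24.0, 12.996, 14.2 and 8.999 CPM at 7D 0 mg/kg, which overlapped, with a log2 fold change of 1.39 (SE 0.61, adjusted p = 0.04246). The rows named Rps4y2 and Rps4x both lie on chromosome 4 in the count table, and both are under 1000 bases wide.

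Several small subunit members rose in some groups and not in others. Rps15a and Rps3a passed in all 3 groups at 7D, at 0.72 and 0.66 for 0 mg/kg, and at 21D each passed in 1 of the 3 groups. Rps25, which binds viral internal ribosome entry sites, stood at 24.3, 36.2 and 38.1 CPM in control and at 77.5, 38.7, 34.2, 36.1 and 35.9 CPM at 7D 0 mg/kg, where the groups overlapped. Its log2 fold change of 0.44 (adjusted p = 0.148) did not pass at 7D 0 mg/kg, while 0.96 at 7D 2 mg/kg and 0.82 at 21D 6 mg/kg did. Among the 15 members that passed in none were Rps24, Rps21, Rpl27, Rpl7 and Rpl37a, whose log2 fold changes at 7D 0 mg/kg were -0.07, 0.15, 0.01, 0.03 and -0.11.

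Few members were called between times or doses. From 7D to 21D at 0 mg/kg 0 members were called by edgeR in either direction (2.88% of all genes higher, 2.47% lower). At an unadjusted p under 0.05 there were 7 members, beside 23.7% of all genes, and DESeq2 called 1 higher and 1 lower (6.87% and 5.06% of all genes). At 2 mg/kg, 2 members were higher at 21D, Rpl3l and Rps2 (7.09% of all genes), and 4 were lower, Rpl41, Rps3a, Rpl22l1 and Rps15a (5.98%). Those 4 had log2 differences of -0.52, -0.61, -0.77 and -0.62. Rps3a stood at 318, 239, 277 and 407 CPM at 7D 2 mg/kg and at 163, 193, 238, 229 and 196 CPM at 21D 2 mg/kg, with no overlap. In this comparison 5.92% of all genes were lower without overlap. Leaving out 1 tendon in turn gave 0 to 4 members lower, without a share of all genes for those fits. At 6 mg/kg 1 member, Rpl3l, was higher at 21D (8.54%) and 0 were lower (4.55%), while DESeq2 called 1 lower (6.53%). The median log2 difference of 21D minus 7D was -0.10 with 48 of 61 members below 0 at 0 mg/kg, -0.22 with 53 below 0 at 2 mg/kg and 0.01 with 27 below 0 at 6 mg/kg, beside medians for all genes of 0.0089, 0.0012 and 0.00042.

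Between doses, Rpl3l was the member that was called. At 7D, 1 of 61 members differed across the 3 doses (2.05% of all genes), Rpl3l, and it was 5.57 lower on the log2 scale at 2 than at 0 mg/kg (adjusted p = 0.0101; 1.45% of all genes lower), beside 21 of 29 muscle markers lower in the same comparison. Leaving out 7D 0 mg/kg replicate 1 gave 2 members, without a share of all genes for that fit. At 6 against 0 mg/kg 0 members were called (0.39% of all genes; 3 members at an unadjusted p under 0.05, where 5.94% of all genes were, and 1 by DESeq2). At 21D 0 members were called at 2 mg/kg (0% of all genes; 2 members unadjusted, beside 8.58%) or at 6 mg/kg (0%; 9 members unadjusted, beside 6.45%), and none across the 3 doses by edgeR (0% of all genes; 7 unadjusted, beside 10.9%, and 1 by DESeq2). The dose by time interaction gave 0 members (0.39% of all genes; 4 unadjusted, beside 7.84%, and 1 by DESeq2). Member log2 differences of treated minus vehicle were mostly small and above 0: the median was 0.20 with 56 of 61 positive for 2 mg/kg at 7D, 0.07 with 44 for 6 mg/kg at 7D, 0.04 with 47 for 2 mg/kg at 21D and 0.20 with 54 for 6 mg/kg at 21D, beside medians for all genes of 0.0014, -0.0071, -0.011 and 0.0020.

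Within groups, members varied about as much as other genes, at a median SD of 0.23 log2 CPM beside 0.26 for all genes kept, with a few wide exceptions. Rpl12, a stalk base protein, stood at 44.6 to 68.3 CPM in 7 tendons of 5 groups and at 2.78 to 7.82 CPM in the other 23. Rps10 stood at 16.0 to 23.9 CPM in 5 tendons of 4 groups and at 0.488 to 1.86 CPM in the other 25. Rpl17, an exit tunnel protein that was picked out after its values were seen, stood at 373 to 604 CPM in 15 tendons and at 144 to 293 CPM in the other 15. None of the 3 was called against control in any group, and the cause was not tested.

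**Figure D4:**
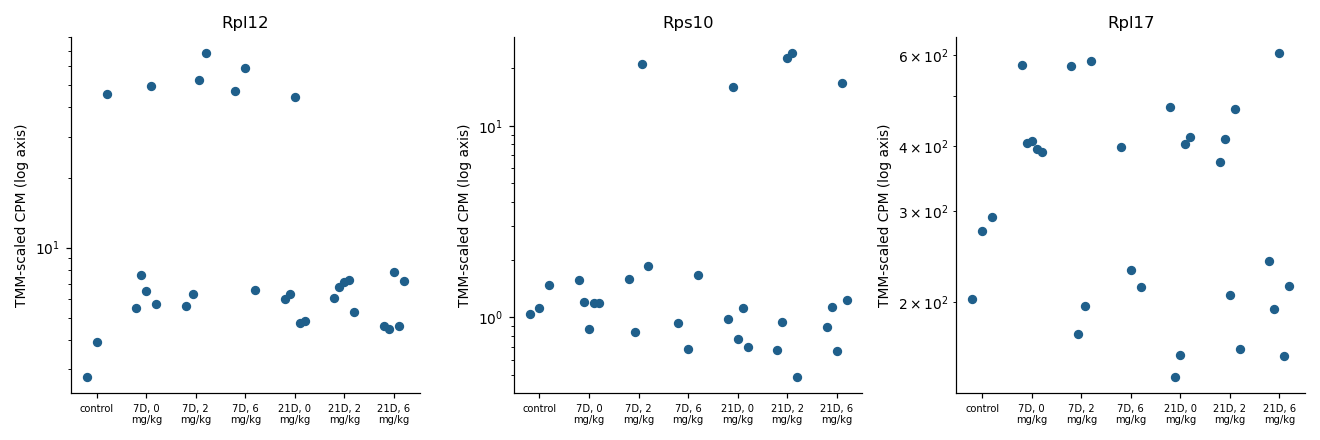
TMM-scaled CPM of Rpl12, Rps10 and Rpl17 in each tendon on log axes, by group. High and low tendons stand in the same group, with 7 of 30 tendons high for Rpl12, 5 for Rps10 and 15 for Rpl17.

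Other genes of protein synthesis gave both directions, on lists chosen with earlier results of these data known. At 7D 0 mg/kg 35.8% of all genes tested were higher and 35.6% lower. The translation factors called below, and the ribosome biogenesis genes that were lower, were near those shares, so these counts set nothing apart. Rpsa and Rack1, small subunit proteins outside the naming rule, were higher at 7D 0 mg/kg, by 0.52 and 0.42. Of 15 translation factors of the TOP class 5 were higher and 4 lower, with Pabpc1, the poly(A)-binding protein, at 1.67 and Eef1d, an elongation factor subunit, at -0.66. Eef1a1 was higher by 0.64 and Eef1a2, the elongation factor form of muscle and neurons, was lower by a log2 fold change of -4.97. Of 37 ribosome biogenesis genes 4 were higher and 15 lower, with Fbl, the rRNA methylase fibrillarin, at 0.43 and Polr1b, an RNA polymerase I subunit, at -1.23. Of 71 mitochondrial ribosome genes 0 were higher and 65 lower at 7D 0 mg/kg, with a median of -1.09, and 66 were lower at 21D 0 mg/kg (33.7% of all genes). Control tendons held more muscle RNA, from which this difference cannot be told apart. Of 17 regulators 4 were higher and 12 lower, with Myc, a transcription factor of growth genes, at 1.99 and Rps6kb1, the S6 kinase, at -1.26.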

How the data were processed

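RNA of 30 rat plantaris tendons, 1 per rat, was sequenced as 50-base single-end reads. The deposited counts are whole reads per gene: the authors trimmed reads with fastp, aligned them to RN6 with STAR and counted exon reads on the Ensembl annotation, and the submitters' processing notes name FastQC, STAR and edgeR without versions. Whether counting used strand is not given in the sources used here. A second deposited table holds the authors' own comparisons (fold changes and p-values), of which only gene names and widths were used. Samples were grouped by GEO's labels. The members, the gene lists and the named genes were chosen with earlier results of these data known, and named genes were the role and paralog list, the 5 extremes each way against control at 0 mg/kg, the 5 smallest p across doses, the 3 extremes over time and the 5 genes most like Rpl3l.

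Counts were tested in edgeR 4.0.16 (R 4.3.3) by the quasi-likelihood test with TMM factors, a mean for each of 7 groups over 30 tendons, genes of at least 3 CPM on average in at least 1 group (12558 of 13124) and Benjamini-Hochberg adjustment over all of them. Adjusted p-values named here come from this fit unless stated. TMM factors were 0.599 to 0.788 in control and 0.9503 to 1.095 in repaired tendons. Paralog ratios used log2 counts with 0.5 added and exact permutation tests. DESeq2 1.42.0, other scalings, no filter, a replicate block and leaving out each tendon were alternatives, and the muscle covariate and a minimum of 10 CPM were added after seeing the data. The edgeR fit of 7D 0 mg/kg against control was tested on simulated counts with few genes changed, evenly in both directions. That does not test how the scaling behaves with the wide changes seen here, nor the permutation tests or the covariate. With 12405741 to 49909374 counts per tendon, 3 counts equal 0.0601 to 0.242 CPM, a limit of counting error only. No pair of tendons of the same group looked like a duplicate, and pairs from different groups were not checked for this. P-values measure the spread between rats. Some genes are not reported here by name.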

Additional observations from a re-analysis of the deposited data

Results flagged for a closer look

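In groups of 4 or 5 tendons, 21 of 175 group and measure combinations had a tendon far from the others by Dixon's gap, where chance gives about 1 in 20. The measures of a tendon vary together, and some members were named for extreme values in these data, so this is no test of an excess. Most were in 7D 0 mg/kg replicate 1, the highest tendon of its group for Rpl5 (648.7 CPM), Rpl23 (864.3 CPM), Rpl4 (1973 CPM), Rps25 (77.54 CPM), Rps27a (158.4 CPM), Rpl7 (867.4 CPM), Rpl26 (168.3 CPM), Rps27l (203.8 CPM), Rps27 (486.2 CPM) and Rps3a (320.6 CPM), and for the members' share of counts (3.237%). The same tendon was the lowest of its group for Rps2 (98.92 CPM). Without it, 23 members were higher than control and 2 lower at 7D 0 mg/kg, beside 35% and 35.1% of all genes.

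Rpl12 stood apart in 7D 0 mg/kg replicate 4 (49.28 CPM) and 21D 0 mg/kg replicate 3 (44.57 CPM). Rps10 stood apart in 7D 2 mg/kg replicate 4 (21.07 CPM), 21D 0 mg/kg replicate 2 (15.97 CPM) and 21D 6 mg/kg replicate 4 (16.77 CPM). In 21D 2 mg/kg replicate 2, Rpl13a was the lowest of its group (35.01 CPM) and Rps4x the highest (8.386 CPM). For small subunit counts per large subunit count, 7D 0 mg/kg replicate 5 was the lowest of its own group (0.4253) and 21D 6 mg/kg replicate 1 the highest of its own group (0.4495). The cause was not tested.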

How the results depend on the processing

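Counts of members higher or lower than control depended on the scaling and on the controls. At 7D 0 mg/kg the members higher numbered 55 with library size only (59.5% of all genes), 45 with the library size without muscle markers (42.3%), 17 at 1.5-fold (29%) and 19 with the muscle covariate (21.4%), and the members lower numbered 1 with either library size, with only the groups compared and at 1.5-fold, and 0 with the covariate. At 7D 6 mg/kg 54 were higher with library size only (57.1%) and 1 lower with either library size. At 21D 0 mg/kg the members higher were 56 (57.9%), 39 (40.5%), 13 with only the groups compared and 8 at 1.5-fold (25.4%), and 0 were lower with the covariate. At 21D 2 mg/kg 56 were higher with library size only (55.2%). DESeq2 called 1 higher and 1 lower from 7D to 21D at 0 mg/kg (6.87% and 5.06% of all genes), 1 lower at 6 mg/kg (6.53%), and 1 each for 6 against 0 mg/kg at 7D, across doses at 21D and for the interaction. Library size only gave 1 higher at 2 mg/kg (5.63%) and 1 lower at 6 mg/kg (6.36%) over time. Leaving out 1 tendon gave 13 to 36 higher and 1 to 3 lower at 7D 0 mg/kg, 23 to 49 and 1 to 2 at 7D 2 mg/kg, 17 to 42 and 1 to 2 at 7D 6 mg/kg, 7 to 27 and 1 to 4 at 21D 0 mg/kg, 11 to 31 and 1 to 4 at 21D 2 mg/kg and 17 to 45 and 1 to 2 at 21D 6 mg/kg, the fewest higher without control replicate 2 and the most without control replicate 4, or, at 21D 0 mg/kg, without its replicate 2. In these fits against control, 25% to 35.4% of all genes were higher and 31.3% to 37.5% lower. Over time leaving out 1 tendon gave 0 to 1 at 0 mg/kg, 1 to 2 higher and 0 to 4 lower at 2 mg/kg and 0 to 1 lower at 6 mg/kg, and 1 to 2 for 2 against 0 mg/kg at 7D. Shares of all genes are not given for leaving out a tendon over time or between doses. They are also not given for only the groups compared or for DESeq2 between doses. The share of counts in control was 1.83% without muscle counts. Without the 5 highest members the shares were 0.915% in control, 1.684%, 1.864% and 1.754% at 7D and 1.544%, 1.562% and 1.713% at 21D. With the replicate block 27, 42 and 25 members were higher at 7D and 18, 25 and 36 at 21D (35.9%, 35.7%, 34.1%, 32.2%, 34.2% and 31% of all genes), and the numbers do not pair tendons, since same-number correlations ran from -0.701 to 0.681 (median 0.00685) and 5 of 30 tendons matched best with their own number. Of the other log2 fold changes of named members, 751 kept direction and call under the settings other than leaving out a tendon, 48 came past the threshold and 23 lost it. The sign of 40 changed, as follows against control unless a time difference at 0 mg/kg is given. With muscle share as a covariate Rpl10 7D 0 mg/kg -0.0078, Rpl7l1 7D 0 mg/kg -0.0097, Rps4x 7D 0 mg/kg -0.020, Rpl12 7D 0 mg/kg 0.068, Rps10 7D 0 mg/kg -2.50, Rps27l 21D 0 mg/kg 0.078, Rps10 21D 0 mg/kg -1.08, Rpl10 21D minus 7D 0.059, Rpl3l 21D minus 7D -0.25. With RLE normalization Rpl7 7D 0 mg/kg -0.013, Rps10 7D 0 mg/kg -0.030, Rpl26 21D minus 7D 0.0071. With DESeq2 Rpl7 7D 0 mg/kg -0.012, Rps10 7D 0 mg/kg -0.046, Rpl26 21D minus 7D 0.0071. With library size only Rpl10l 7D 0 mg/kg 0.36, Rpl36al 7D 0 mg/kg 0.52, Rpl31 7D 0 mg/kg 0.18, Rpl30 7D 0 mg/kg 0.36, Rpl12 7D 0 mg/kg 0.59, Rpl36al 21D 0 mg/kg 0.39, Rps27l 21D 0 mg/kg 0.56, Rps4x 21D 0 mg/kg 0.15, Rpl31 21D 0 mg/kg 0.38, Rpl12 21D 0 mg/kg 0.36, Rpl7 21D minus 7D -0.025. With library size without the skeletal muscle marker list Rpl36al 7D 0 mg/kg 0.074, Rpl12 7D 0 mg/kg 0.068, Rpl36al 21D 0 mg/kg 0.0064, Rps27l 21D 0 mg/kg 0.17, Rpl10 21D minus 7D 0.0039, Rpl26 21D minus 7D 0.022, Rps27 21D minus 7D 0.0076. With replicate block Rpl12 7D 0 mg/kg 0.14, Rpl12 21D 0 mg/kg 0.36, Rpl12 21D minus 7D 0.22. With only the groups compared Rpl10 21D minus 7D 0.00051, Rpl26 21D minus 7D 0.014, Rps27 21D minus 7D 0.0042. With no filter on low counts Rpl26 21D minus 7D 0.0073. Leaving out 1 tendon turned the sign within these ranges: Rpl23 7D 0 mg/kg -0.054 to 0.29, Rpl7l1 7D 0 mg/kg -0.022 to 0.42, Rpl7 7D 0 mg/kg -0.19 to 0.15, Rpl36al 7D 0 mg/kg -0.36 to 0.14, Rps27l 7D 0 mg/kg -0.13 to 0.36, Rps4x 7D 0 mg/kg -0.052 to 0.20, Rpl30 7D 0 mg/kg -0.56 to 0.092, Rpl12 7D 0 mg/kg -1.45 to 2.09, Rps10 7D 0 mg/kg -0.16 to 0.11, Rpl23 21D 0 mg/kg -0.11 to 0.23, Rpl4 21D 0 mg/kg -0.015 to 0.27, Rpl22l1 21D 0 mg/kg -0.15 to 0.41, Rpl7 21D 0 mg/kg -0.16 to 0.17, Rpl36al 21D 0 mg/kg -0.44 to 0.065, Rps27l 21D 0 mg/kg -0.28 to 0.22, Rpl31 21D 0 mg/kg -0.46 to 0.055, Rpl30 21D 0 mg/kg -0.23 to 0.42, Rpl12 21D 0 mg/kg -1.62 to 1.94, Rps10 21D 0 mg/kg -0.43 to 1.99, Rpl5 21D minus 7D -0.062 to 0.052, Rpl10 21D minus 7D -0.049 to 0.033, Rpl23 21D minus 7D -0.10 to 0.033, Rps27a 21D minus 7D -0.11 to 0.14, Rpl7 21D minus 7D -0.021 to 0.10, Rpl26 21D minus 7D -0.085 to 0.11, Rpl36al 21D minus 7D -0.14 to 0.00076, Rps27 21D minus 7D -0.048 to 0.097, Rpl12 21D minus 7D -1.44 to 1.08, Rps10 21D minus 7D -0.43 to 1.96, the ratio Rpl7l1/Rpl7 7D 0 mg/kg -0.17 to 0.47, the ratio Rpl7l1/Rpl7 21D 0 mg/kg -0.15 to 0.50, the ratio Rpl10l/Rpl10 21D 0 mg/kg -0.0016 to 0.48, the ratio Rpl7l1/Rpl7 21D 0 mg/kg minus 7D 0 mg/kg -0.083 to 0.11, the ratio Rps4y2/Rps4x 21D 0 mg/kg minus 7D 0 mg/kg -0.38 to 0.27. The causes were not tested.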
